A study of Rattus norvegicus with 8 samples.

Results

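The microRNAs miR-224 and miR-452 were described in samples labelled as rat bone marrow mesenchymal stem cells, the stromal precursors of bone, cartilage and marrow fat, with and without dexamethasone, a synthetic glucocorticoid. Their rows were picked by name as every arm of rno-miR-224 and rno-miR-452, which gave 4 of the 487 mature miRNAs listed: miR-224-5p, miR-224-3p, miR-452-5p and miR-452-3p. miR-224 was singled out with its rise after dexamethasone already known, so the group difference of the 4 rows is described here without a test. The question of the series was the effect of dexamethasone on miRNA levels. The series holds miRNA sequencing of 4 samples given 10 µM dexamethasone for 48 h and 4 control samples. The labels used here name no vehicle and no culture time for the controls, no rat strain and no passage. If time in culture differed between the groups, it could not be told apart from the treatment. The labels also do not say whether replicates were separate cultures. The p-values thus cover only the spread among these samples, which may be technical.

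A miRNA gene is transcribed as a hairpin, from which Dicer cuts a duplex of a 5p and a 3p arm. Usually 1 arm is kept in an Argonaute protein and the other is degraded. The kept arm finds messenger RNAs through its seed, bases 2 to 8. In human and mouse, miR-224 and miR-452 lie in an intron of the gene for the epsilon subunit of the GABA-A receptor (GABRE, Gabre) on the X chromosome. miR-224 is known in mouse granulosa cells of the ovary as a miRNA raised by TGF-β that represses Smad4, a shared transducer of TGF-β and BMP signals, and it has been reported to restrain fat cell formation in mouse preadipocytes.

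RefSeq (assembly GRCr8) held the rat Mir224 hairpin and both of its arms, which are shown because all but a few of the counts described here came from the 5p arm. In the mature sequences the capitals mark the seed, and in the hairpin they mark the 5p arm and then the 3p arm.
rno-miR-224-5p: cAAGUCACuagugguuccguuu
rno-miR-224-3p: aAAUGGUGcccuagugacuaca
Mir224 hairpin: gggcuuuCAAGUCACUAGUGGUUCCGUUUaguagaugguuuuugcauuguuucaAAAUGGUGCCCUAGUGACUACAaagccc
Both arms are 22 bases long, and they take positions 8 to 29 and 55 to 76 of the 82-base hairpin. RNAfold predicted 30 base pairs and a minimum free energy of -37.3 kcal/mol for this hairpin, with 18 of 22 bases of the 5p arm and 19 of 22 bases of the 3p arm paired. None of the 693 other rat mature sequences in the RefSeq table had the same bases 2 to 8 as miR-224-5p. The longest run that miR-224-5p shared with any of them was 9 bases, so its counts have no near-identical relative in that table with which reads could be shared. Bases 2 to 7 were shared by rno-miR-6325 alone, and that miRNA has no row among the 487.

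In the RefSeq gene table Mir224 lay inside the bounds of Gabre, with the protein-coding genes Magea4 and Magea10 on either side of Gabre. The Gabre promoter is shown because the treatment was a glucocorticoid, whose receptor binds DNA elements built on the core letters AGAACA. The window ran from 250 bases before to 50 bases after the annotated start (GRCr8, chrX:155120672-155120971, minus strand), and the capitals mark the core.
Gabre promoter: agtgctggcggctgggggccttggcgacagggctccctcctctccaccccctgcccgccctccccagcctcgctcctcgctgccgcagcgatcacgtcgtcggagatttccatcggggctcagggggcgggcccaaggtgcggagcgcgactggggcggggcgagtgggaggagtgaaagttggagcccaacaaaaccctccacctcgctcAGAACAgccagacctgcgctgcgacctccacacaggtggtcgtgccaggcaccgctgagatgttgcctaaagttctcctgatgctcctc
The core was searched on both strands as AGAACA and its reverse complement TGTTCT, and it occurred 1 time, starting 39 bases upstream of the start. Of 33469 rat promoters of the same length, 20.7% held it on either strand. The palindrome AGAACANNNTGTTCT was not found in this window, and 5 of the 33469 promoters held it. These are matches of letters, and no measurement of receptor binding or of Gabre messenger RNA was used here.

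Library totals ran from 1377881 to 1521505 counts in dexamethasone samples and from 1835256 to 2639007 in control samples, so every treated library was shallower. Of 487 miRNAs, 245 passed the abundance filter and were tested with edgeR's quasi-likelihood test and Benjamini-Hochberg adjustment, and 113 (46.1%) had an adjusted p below 0.05. Higher levels after dexamethasone made up 24.9% of those tested and lower levels 21.2%, with 61 and 52 calls. With upper quartile scaling, which shifted the median log2 fold change by -0.15, the calls were 41 higher and 71 lower. Markers listed for mesenchymal cells (all 5 in the table, none at 0) summed to 141456 to 144286 CPM (counts scaled to a library total of 1000000) in dexamethasone samples and 131532 to 137168 CPM in control samples. Most of that sum was miR-199a-3p, at a mean of 110804 CPM in dexamethasone and 97394 CPM in control samples. The 5 did not move together, since 2 rose and 1 fell. The rise of miR-199a-3p missed the threshold with upper quartile scaling (adjusted p in edgeR = 0.415).

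miR-224-5p was higher in dexamethasone samples and had nearly the same level in all 4 controls. It had 968, 1317, 1234 and 1107 counts in dexamethasone replicates 1 to 4, and 780, 711, 535 and 676 counts in control replicates 1 to 4. Scaled to the library total these were 668, 866, 868 and 803 CPM in dexamethasone samples, against 296, 303, 292 and 304 CPM in control samples. All 4 treated samples lay above all 4 controls, as they did in 21.6% of tested miRNAs (groups apart in either direction: 42%), and treated replicate 1 was the lowest of its group. The lowest treated sample had 2.20 times the level of the highest control, and the highest treated sample had 2.98 times that of the lowest control. miR-224-5p averaged 801 ± 93.7 CPM in dexamethasone and 298 ± 5.88 CPM in control samples (SD, n = 4 each). The fitted difference was 2.73-fold, a log2 fold change of 1.45 ± 0.08 (SE). In samples of mixed cells, more cells of a type that makes this miRNA and more of it per cell cannot be told apart.

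**Figure D1:**
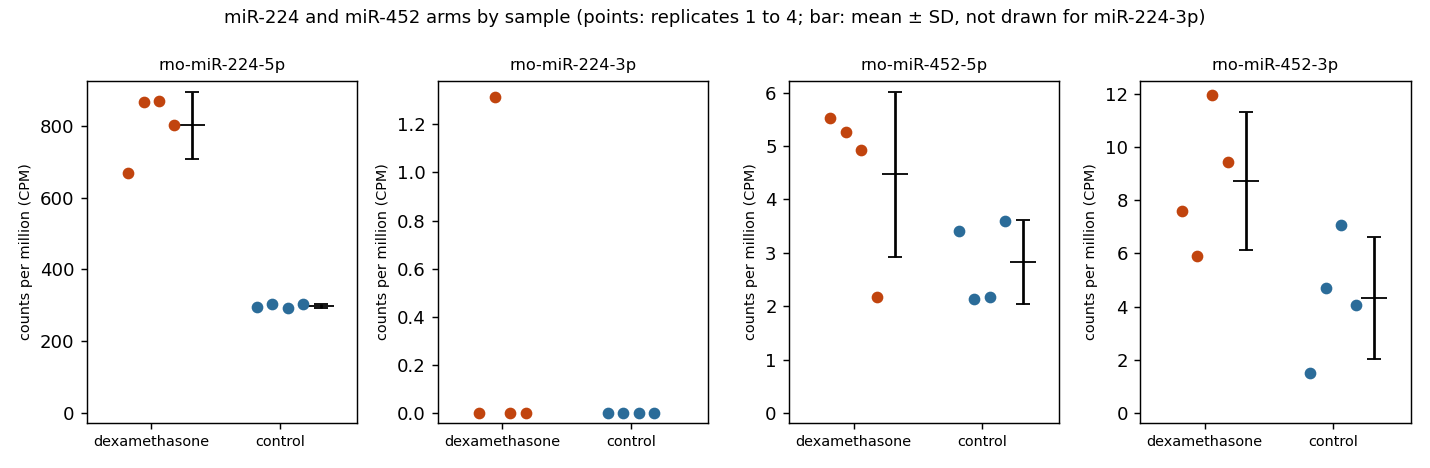
Level of each arm in CPM (vertical axes, a scale of its own in each panel) in dexamethasone and control samples; points are replicates 1 to 4 and bars are mean ± SD (n = 4), left out for miR-224-3p. miR-224-5p sits at 668 to 868 CPM in dexamethasone and 292 to 304 CPM in control samples, and the other arms stay at or below 11.96 CPM in every sample.

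The groups stayed apart at equal depth. After every library was thinned to 1377881 counts, miR-224-5p kept 922, 1196, 1195 and 1107 counts in dexamethasone replicates 1 to 4 and 436, 436, 387 and 420 counts in control replicates 1 to 4. Across 15 alternative scalings, filters, tests and sets of samples the log2 fold change of miR-224-5p ran from 1.29 to 1.51, which is 2.45-fold to 2.85-fold. The lowest of these values came from upper quartile scaling and the highest from leaving out dexamethasone replicate 1.

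Among miRNAs at least as abundant as miR-224-5p, none rose by as much. The mean of its 2 group means was 549.9 CPM, and 49 tested miRNAs had a mean at least that high, with the highest log2 fold change at 0.94, in miR-351-5p. Falls are not counted here, and miR-146a-5p, among the 49, had a log2 fold change of -1.77. Of the 195 less abundant tested miRNAs, 6 had a higher positive log2 fold change than miR-224-5p. They were miR-101b-3p, miR-1b, miR-206-3p, miR-326-3p, miR-592 and miR-672-5p. Of these, miR-326-3p and miR-592 had at most 2.13 and 1.09 CPM in control samples, so their fold changes rest on few control counts. Both passed the abundance filter only through the treated samples, where they are high. This ranks fitted differences that were known when the miRNA was chosen, and it carries no test.

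**Figure D2:**
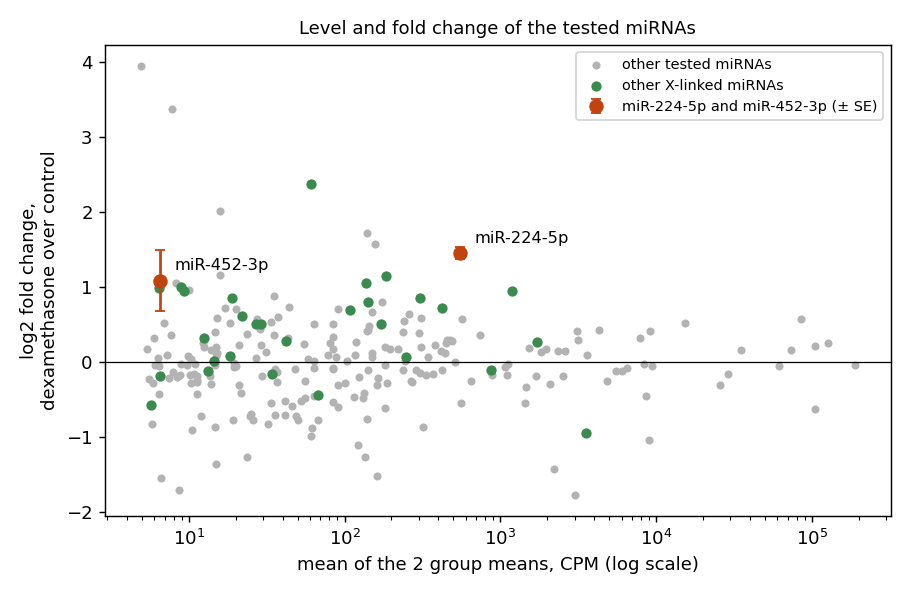
Log2 fold change (vertical axis, dexamethasone over control) against the mean of the 2 group means in CPM (horizontal log axis) for 245 tested miRNAs. miR-224-5p (1.45) lies above the miRNAs at its level and to its right, and miR-452-3p (1.08) lies among the least abundant tested miRNAs with a wide standard error (0.40).

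The 3p arm of miR-224 was almost absent. It had 2 counts in dexamethasone replicate 2 and 0 counts in the 7 other samples. A count of 0 allowed up to 3 counts, which is 2.07, 2.11 and 2.18 CPM in the other treated libraries and 1.14 to 1.63 CPM in control libraries, so no fold is given for it. The 3p arm made up 2 of 4628 miR-224 counts in dexamethasone samples, or 0.0432% (exact 95% binomial interval 0.00523 to 0.156%). In control samples it made up 0 of 2702 counts, which allows a share of up to 0.111% by the limit of 3 counts (exact 95% binomial interval 0 to 0.136%). In both groups miR-224 was thus counted almost wholly as its 5p arm, and a difference in arm use was not detectable at this depth. Intervals and limits here cover counting error only, and library preparation can capture arms unequally.

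miR-452 was counted at levels close to these limits. miR-452-3p had 11, 9, 17 and 13 counts in dexamethasone replicates 1 to 4, and 4, 11, 13 and 9 counts in control replicates 1 to 4. In CPM these were 7.59, 5.92, 11.96 and 9.43 in dexamethasone samples, against 1.52, 4.68, 7.08 and 4.05 in control samples. The groups overlapped, since control replicate 3 lay above treated replicate 2. Pooled over each group, miR-452-3p had 8.67 CPM in dexamethasone samples (50 counts, exact 95% Poisson interval 6.43 to 11.4 CPM) and 4.09 CPM in control samples (37 counts, 2.88 to 5.64 CPM). Its fitted log2 fold change was 1.08 ± 0.40 (SE), 2.12-fold, and ran from 0.75 without control replicate 1 to 1.36 without control replicate 3.

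The other arm, miR-452-5p, did not pass the abundance filter. It had 8, 8, 7 and 3 counts in dexamethasone replicates 1 to 4, and 9, 5, 4 and 8 counts in control replicates 1 to 4. These were 5.52, 5.26, 4.93 and 2.18 CPM in dexamethasone samples, against 3.41, 2.13, 2.18 and 3.596 CPM in control samples. Treated replicate 4 fell among the controls. Each group held 26 counts in all, which is 4.51 CPM in dexamethasone samples (exact 95% Poisson interval 2.94 to 6.60 CPM) and 2.87 CPM in control samples (1.88 to 4.21 CPM), and these intervals overlap.

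Unlike miR-224, miR-452 was counted from both arms. The 3p arm held 50 of 76 miR-452 counts in dexamethasone samples, or 65.8% (exact 95% binomial interval 54.0 to 76.3%), and 37 of 63 counts in control samples, or 58.7% (45.6 to 71.0%). For each miR-452 count there were 60.9 miR-224 counts in dexamethasone samples and 42.9 in control samples, summed over both arms. Per sample this ratio was 50.9, 77.6, 51.4 and 69.2 in dexamethasone replicates 1 to 4, against 60, 44.4, 31.5 and 39.8 in control replicates 1 to 4. The groups overlapped in this ratio, as control replicate 1 lay above 2 treated samples, and each sample's ratio rests on 13 to 24 miR-452 counts.

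**Figure D3:**
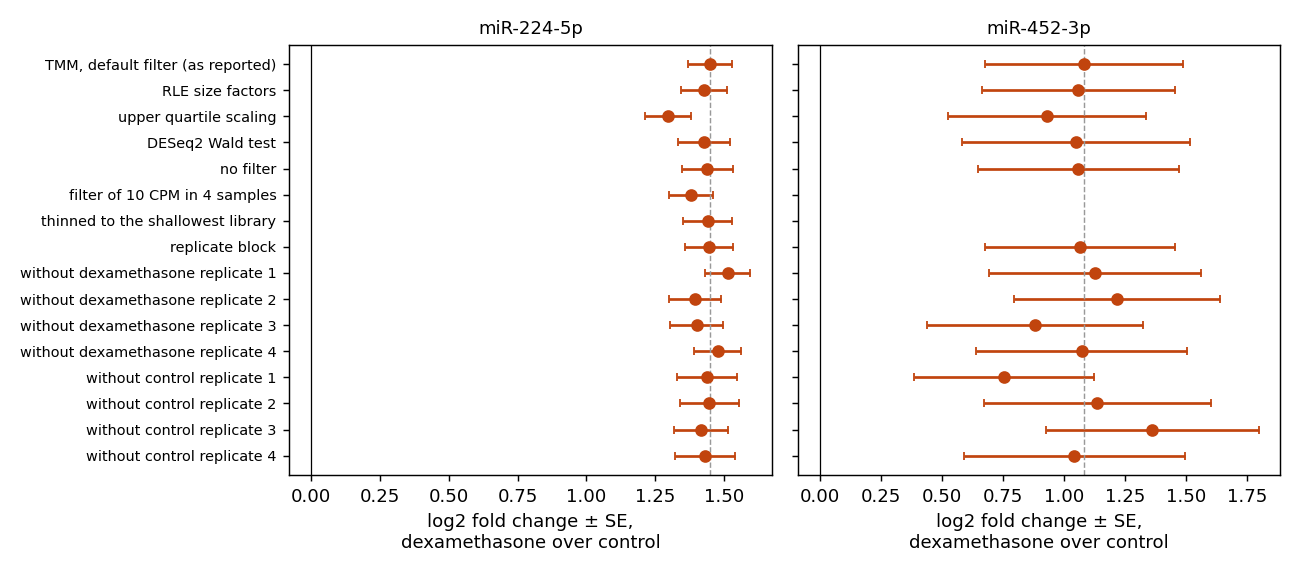
Fitted log2 fold change ± SE (horizontal axes, dexamethasone over control) of miR-224-5p and miR-452-3p under each setting (rows); the dashed line is the value reported. miR-224-5p stays between 1.29 and 1.51, while miR-452-3p spans 0.75 to 1.36 and has no value where the filter or thinning removed it.

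Replicates of miR-224-5p were spread more widely in dexamethasone than in control samples, a difference given here without a test. With trimmed mean of M values (TMM) scaling its coefficient of variation was 8.93% in dexamethasone and 2.37% in control samples. On that scale dexamethasone replicate 1 was at 708 CPM, against 801 to 868 CPM in dexamethasone replicates 2 to 4, so the treated spread leans on 1 library. Counting error alone gives about 2.96% in dexamethasone and 3.88% in control samples, so the controls varied by no more than counting error. The index of dispersion, which is near 1 for pure counting error, was 9.0 in dexamethasone and 0.338 in control samples. Over the miRNAs that averaged 100 counts or more in the group, the median index was 6.14 over 126 miRNAs in dexamethasone and 3.40 over 145 in control samples. In control samples miR-224-5p had the 7th lowest index of the 145, and in dexamethasone samples it ranked 74 of 126 from the lowest. Thinned to equal depth, its coefficient of variation was 9.25% in dexamethasone and 5.64% in control samples in the single random draw made. In that draw its index was 9.18 in dexamethasone and 1.33 in control samples, ranked 75 of 125 and 33 of 126 from the lowest. Its place near the bottom in controls was thus not kept at equal depth.

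In the order of levels miR-224-5p moved up after dexamethasone. It ranked 44 to 47 of 487 in the dexamethasone libraries and 65 to 68 of 487 in the control libraries. It took 0.0668 to 0.0868% of all counts in dexamethasone samples and 0.0292 to 0.0304% in control samples. In dexamethasone samples the next miRNAs above it were miR-98-5p, miR-181a-5p and miR-22-3p, at mean levels of 836, 828 and 824 CPM, and the next below were miR-30d-5p, miR-125b-1-3p and miR-148a-3p, at 678, 590 and 533 CPM. The range of each of these 6 overlapped that of miR-224-5p, so this order is not resolved. In control samples the next above were miR-676, miR-328a-3p and miR-145-5p, at 324, 321.9 and 302 CPM, and the next below were miR-140-5p, miR-185-5p and miR-149-5p, at 296, 293 and 292 CPM. There miR-676 and miR-328a-3p lay wholly above miR-224-5p, and the other 4 overlapped it.

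Of these 12 neighbours in level, 2 rose and 2 fell after dexamethasone and 8 did not pass, against 24.9% higher and 21.2% lower among all tested. The rises were miR-676 and miR-30d-5p, a member of the miR-30 family, whose log2 fold changes were 0.72 ± 0.09 and 0.58 ± 0.08 (± SE; adjusted p in edgeR = 2.33e-05 and 5.39e-05). The falls were the cartilage miRNA miR-140-5p, at -0.27 ± 0.09, and miR-149-5p, at -0.25 ± 0.08 (log2 fold change ± SE, adjusted p in edgeR = 0.0286 and 0.0215). Both falls were near the threshold. miR-140-5p missed it when control replicate 1 or 2 or dexamethasone replicate 3 was left out, and miR-149-5p missed it when control replicate 1 or 4 or dexamethasone replicate 1 or 4 was left out (adjusted p in edgeR = 0.0501 to 0.0972). Calls were also lost with a replicate block, for miR-140-5p and miR-149-5p (adjusted p in edgeR = 0.0579 and 0.0593), for miR-140-5p after thinning (0.0690) and for miR-149-5p with no filter (0.0516). Conversely, miR-181a-5p rose without dexamethasone replicate 1, and without dexamethasone replicate 4 miR-148a-3p and miR-185-5p rose and miR-22-3p and miR-125b-1-3p fell (adjusted p in edgeR = 0.00537 to 0.0295). With upper quartile scaling miR-98-5p, miR-22-3p, miR-125b-1-3p and miR-328a-3p fell (adjusted p in edgeR = 0.0097 to 0.0427), miR-22-3p also fell with the 10 CPM filter (0.0377), and miR-185-5p rose after thinning (0.0492). The log2 fold changes of the 12 ran from -0.27 to 0.72, with a median of -0.10, and that of miR-224-5p was 1.45. Since miR-224-5p was chosen with its rise known, its place above these neighbours is a description and carries no test.

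**Figure D4:**
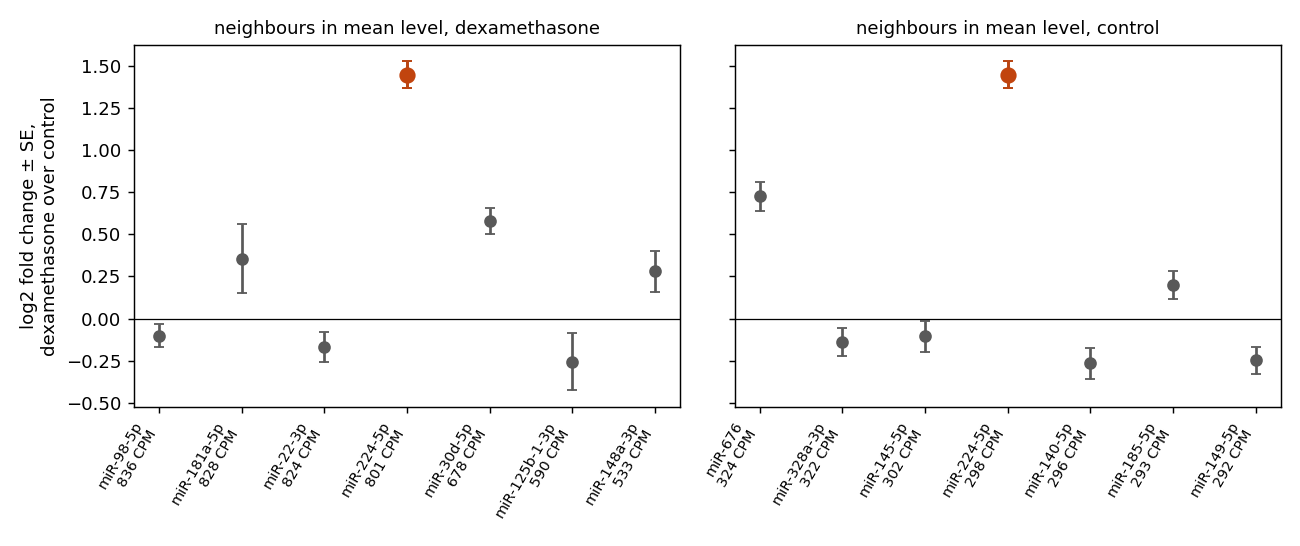
Log2 fold change ± SE (vertical axis, dexamethasone over control) of miR-224-5p and of the 3 tested miRNAs above and below it in mean level, ordered by level in dexamethasone samples (left) and in control samples (right). The 12 neighbours lie between -0.27 and 0.72, and miR-224-5p, chosen with its rise known, lies at 1.45.

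Profiles most like that of miR-224-5p followed the treatment. Across the 8 samples, Pearson's r of log2 CPM with miR-224-5p was highest for miR-101b-3p (0.99), miR-326-3p (0.98), miR-199a-5p (0.98), miR-199a-3p (0.98) and miR-351-5p (0.98). The 8 samples form 2 separate groups and share the depth difference, so these values mostly restate that each miRNA differed between groups, and 30 of 244 miRNAs had r above 0.9. In control samples miR-326-3p had only 0.76 to 2.13 CPM, near the limits that a count of 0 allows. miR-101b-3p, of a family known to target the histone methyltransferase Ezh2, had 213 ± 11.5 CPM in dexamethasone and 65.8 ± 5.13 CPM in control samples (SD, n = 4). miR-199a-3p, a mesenchymal miRNA, had 110804 ± 2615 CPM in dexamethasone and 97394 ± 1847 CPM in control samples (SD, n = 4). Its fitted difference was 1.16-fold, although its profile was among the most like that of miR-224-5p. The rise of miR-199a-3p missed the threshold with upper quartile scaling (log2 fold change 0.06, adjusted p in edgeR = 0.415).

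Within the groups the picture was different. For deviations from the group means, r with miR-224-5p was highest for miR-132-5p (0.83), miR-674-5p (0.81) and miR-34c-5p (0.80), and its median over 244 miRNAs was -0.01. miR-132-5p comes from a transcript induced by CREB, and miR-34c-5p belongs to a family induced by p53. Of the 5 miRNAs most like it over all samples, miR-101b-3p, miR-199a-3p and miR-351-5p had negative r of deviations, at -0.33, -0.65 and -0.11. These coefficients describe 4 samples a group and share the library totals, and they carry no test. They also lean on dexamethasone replicate 1, the treated sample furthest from the others in miR-224-5p.

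X-linked miRNAs were examined because Mir224 lies on chromosome X in the RefSeq table. Only names matched to RefSeq (443 of 487) could be placed, so the list of X-linked rows is not complete. Besides miR-224, 53 of the matched rows had their only gene on X, and 29 of them were tested. After dexamethasone 15 rose, 1 fell and 13 did not pass, which is 51.7% higher and 3.45% lower, against 24.9% and 21.2% of all tested. Their median log2 fold change was 0.51, against 0.00 over all 245. Many of these rows share a primary transcript and are not independent. The cluster of miR-322, miR-503, miR-351, miR-542 and miR-450a alone gave 9 of the 15 rises, with log2 fold changes of 0.27 to 1.15. Outside it 6 of 20 rose, 1 fell and 13 did not pass, with a median log2 fold change of 0.18. A second cluster, of miR-532, miR-362, miR-500 and miR-501, gave 3 of these 6 rises from its 5 tested arms placed on X. Their log2 fold changes were 0.51 to 1.06. The arm miR-362-5p was also tested and did not pass (log2 fold change 0.52 ± 0.43, SE, adjusted p in edgeR = 0.368). It was not placed on X here, so the counts above leave it out. Of the 3 rises, miR-362-3p passed the abundance filter only through treated samples (6.90 to 11.6 CPM, against at most 5.54 CPM in controls). These divisions by cluster were made after the values were seen.

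miR-452 was not placed in the gene order used here. Among the rows that were placed, the nearest tested X-linked neighbour of miR-224 was miR-322-5p, of a family known to restrain cell cycle genes, and no tested row lay on the other side. miR-322-5p had 1871 ± 125 CPM in dexamethasone and 1580 ± 63.7 CPM in control samples (SD, n = 4), a log2 fold change of 0.27 ± 0.07 (SE, adjusted p in edgeR = 0.00803). It missed the threshold without control replicate 1 (adjusted p in edgeR = 0.0535) and with upper quartile scaling (0.267). The other abundant X-linked miRNAs moved in different directions. miR-351-5p had 1559 ± 96.0 CPM in dexamethasone and 826 ± 32.7 CPM in control samples, and miR-676 had 525 ± 47.0 CPM in dexamethasone and 324 ± 6.98 CPM in control samples (SD, n = 4). miR-221-3p, known for repressing cell cycle inhibitors, had 2408 ± 405 CPM in dexamethasone and 4725 ± 203 CPM in control samples (SD, n = 4, log2 fold change -0.95 ± 0.09, SE, adjusted p in edgeR = 7.20e-06). miR-98-5p, a let-7 relative, had 836 ± 44.3 CPM in dexamethasone and 915 ± 29.2 CPM in control samples and did not pass (adjusted p in edgeR = 0.243), but passed with upper quartile scaling (0.0227).

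**Figure D5:**
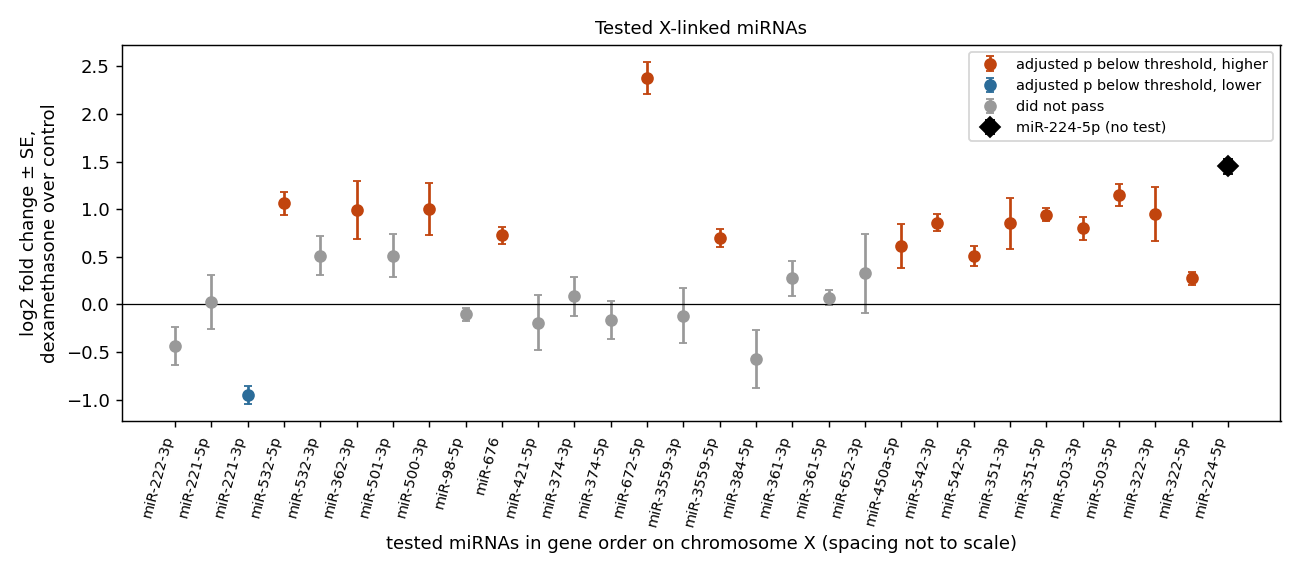
Log2 fold change ± SE (vertical axis, dexamethasone over control) of the RefSeq-matched tested miRNAs whose only gene is on chromosome X. They are in gene order (horizontal axis, spacing not to scale) and coloured by edgeR adjusted p. miR-224-5p, at 1.45, stands at the far end of the order, past the 9 arms of the miR-322 and miR-503 cluster, at 0.27 to 1.15.

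Other miRNAs reported in other systems to target Smad4 were split between rises, falls and no call. Of 8 listed besides miR-224-5p, 6 were tested, and 2 rose, 1 fell and 3 did not pass (33.3% higher and 16.7% lower, against 24.9% and 21.2% of all tested), with a median log2 fold change of -0.02. miR-26a-5p had 10326 ± 1172 CPM in dexamethasone and 7916 ± 282 CPM in control samples (SD, n = 4, log2 fold change 0.41 ± 0.07, SE, adjusted p in edgeR = 3.67e-04). miR-199a-5p had 8683 ± 372 CPM in dexamethasone and 7074 ± 293 CPM in control samples (SD, n = 4, log2 fold change 0.32 ± 0.05, SE, adjusted p in edgeR = 1.51e-04). The fall was in miR-146a-5p, which NF-κB induces, with 1355 ± 55.6 CPM in dexamethasone and 4704 ± 357 CPM in control samples (SD, n = 4, log2 fold change -1.77 ± 0.06, SE, adjusted p in edgeR = 4.63e-10). miR-130a-3p, miR-27a-3p and miR-18a-5p had fitted changes on the log2 scale of 0.02 ± 0.09, -0.06 ± 0.08 and -0.25 ± 0.17 (± SE, adjusted p in edgeR = 0.884, 0.556 and 0.243), and miR-18a-5p fell without dexamethasone replicate 4 (adjusted p in edgeR = 0.0191). Smad4 itself was not measured by this assay.

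Other miRNAs reported to restrain fat cell formation were split between rises, falls and no call. Of 13 listed besides miR-224-5p, 11 were in the table and 9 were tested, and 1 rose, 2 fell and 6 did not pass (11.1% higher and 22.2% lower, against 24.9% and 21.2% of all tested), with a median log2 fold change of -0.11. The rise was in miR-155-5p, an immune-linked miRNA, with 498 ± 19.98 CPM in dexamethasone and 413 ± 16.8 CPM in control samples (SD, n = 4, adjusted p in edgeR = 0.00426), and it missed the threshold with upper quartile scaling (0.172). The falls were in miR-221-3p and in miR-31a-5p, which had 5794 ± 442 CPM in dexamethasone and 12119 ± 629 CPM in control samples (SD, n = 4, log2 fold change -1.04 ± 0.06, SE, adjusted p in edgeR = 5.06e-08). miR-27b-3p, miR-27a-3p and miR-22-3p had fitted changes on the log2 scale of -0.11 ± 0.05, -0.06 ± 0.08 and -0.17 ± 0.09 (± SE, adjusted p in edgeR = 0.0758, 0.556 and 0.136). The list had 1 rise and 4 falls without dexamethasone replicate 4 and with the 10 CPM filter, and 0 rises and 5 falls with upper quartile scaling.

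Summed markers of skeletal muscle, haematopoietic and endothelial cells also differed between the groups, while those of epithelial and neural cells overlapped. Among tested markers, 2 of 2 for skeletal muscle and 1 of 2 for haematopoietic cells rose, and 2 of 2 endothelial ones fell. Of all tested miRNAs, 24.9% rose and 21.2% fell. The 1 tested neural marker did not pass, and no epithelial marker was tested. Skeletal muscle miRNAs (5 of 5 in the table) summed to 236 to 331 CPM in dexamethasone and 73.7 to 103 CPM in control samples. Haematopoietic miRNAs (5 of 6 in the table) summed to 50.4 to 68.2 CPM in dexamethasone and 36.4 to 46.8 CPM in control samples. Endothelial miR-126a arms (2 of 2) summed to 1163 to 1331 CPM in dexamethasone and 1790 to 2000 CPM in control samples. Epithelial markers (6 of 6) summed to 2.81 to 8.54 CPM in dexamethasone and 2.25 to 6.81 CPM in control samples, and neural markers (2 of 3) to 15.2 to 29.6 CPM in dexamethasone and 15.3 to 27.3 CPM in control samples. No listed marker present in the table was at 0 in every sample. Their part in the difference of miR-224-5p was not tested.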

How the data were processed

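Counts of 487 mature miRNAs in 8 samples were taken from the authors' deposited table, which per the file headers also holds CPM, group means, a log2 fold change and p-values and adjusted p-values. The authors' CPM equal the count scaled by the column total to within 4.98e-05. The authors' log2 fold changes and p-values were not used. Alignment tool and build are Bowtie 1.0 and mRatBN7.2, per the submitters' processing notes. What counted the reads, which miRNA annotation served and which test gave the authors' p-values were not stated. Per the labels' protocols the library kit was one for total RNA, and whether short RNAs were selected is not given.

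The test was the quasi-likelihood test of edgeR 4.0.16 (R 4.3.3) after filterByExpr and TMM scaling, with group as its sole term and Benjamini-Hochberg adjustment over 245 miRNAs (threshold 0.05), and it was tested on simulated data. The SE is the size of the log2 fold change over the root of F. TMM factors ran from 0.944 to 1.02. No library had more than 0.0332% of its counts in the 242 rows left out. Chi-square per degree of freedom between replicates was 8.56 to 57.3, so no pair agreed within sampling noise. The highest values, 43.4 to 57.3, were those of dexamethasone replicate 1 with the other treated replicates. Among dexamethasone replicates 2 to 4 they were 8.56 to 23.4. Correlations used log2 CPM with a prior count of 1. Alternatives were RLE, upper quartile scaling, DESeq2 1.42.0, no filter, 10 CPM in at least 4 samples, thinning, a replicate block and leaving out each replicate. Sequences and gene order came from RefSeq GRCr8 (443 of 487 names matched), and RNAfold 2.7.2 folded the hairpin.

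The members, lists and tests were chosen with earlier results of these data known. The other miRNAs named, 30 in all, were set by a rule: the 5 of highest r over the samples and the 3 of highest r of deviations, the 3 above and 3 below in level in each group, the nearest and the 5 most abundant on X, all tested Smad4-linked miRNAs and the 6 most abundant anti-adipogenic ones. miR-1b, miR-206-3p, miR-592, miR-672-5p, miR-142-3p, miR-150-5p, miR-362-3p and miR-362-5p were named after their values were seen.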

Additional observations from a re-analysis of the deposited data

Results flagged for a closer look

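In 5 of 68 groups of 4 samples examined for the named miRNAs, 1 sample stood apart from the other 3, and chance alone gives about 1 in 20. miR-224-3p had 1.31 CPM in dexamethasone replicate 2, where 0 CPM was found in the other 3 treated samples. This is 2 counts and lies under the limit that a count of 0 allows. With the other 3 samples at 0, any count would have been flagged, so this case cannot be set against that rate. miR-34c-5p had 395.5 CPM in dexamethasone replicate 1, against 461 to 465 CPM in the other treated samples, and miR-224-5p was lowest in the same sample. miR-676 had 455 CPM in dexamethasone replicate 4, against 541.8 to 558 CPM in the other treated samples. miR-140-5p had 266 CPM in dexamethasone replicate 4, against 233 to 237 CPM in the other treated samples. miR-199a-5p had 6640 CPM in control replicate 1, against 7175 to 7284 CPM in the other controls.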

How the results depend on the processing

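The log2 fold change of miR-224-5p kept its direction in all 15 alternatives; it was 1.29 with upper quartile scaling and 1.39 to 1.51 when a replicate was left out. That of miR-452-3p was 0.75 to 1.36 when a replicate was left out and could not be fitted after thinning or with the 10 CPM filter. The log2 ratio of summed miR-452-5p counts was 0.67, 0.31 after thinning and 0.54 to 0.92 without a replicate. Upper quartile scaling gave 3 X-linked falls, 0 anti-adipogenic rises, 5 anti-adipogenic falls and 3 of the 5 most like miRNAs. X-linked falls numbered 2 with DESeq2 and 2 with no filter, and anti-adipogenic falls 4 with the 10 CPM filter. Thinning gave a control coefficient of variation of 5.64% for miR-224-5p. Without a replicate, X-linked rises numbered 12 to 15 and falls 1 to 2, Smad4-linked falls 1 to 2, anti-adipogenic falls 2 to 4, all calls 50 to 70 higher and 47 to 60 lower, and 3 to 5 of the most like miRNAs were shared. The causes were not tested. Same-numbered replicates did not deviate together (correlations -0.22 to 0.08), and with a replicate block miR-224-5p was at 1.44 and miR-452-3p at 1.07, with 52 miRNAs higher and 45 lower; X-linked rises numbered 13. Depth limits miR-224-3p and both miR-452 arms.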
